A study of Homo sapiens with 2 samples.

Results

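The HOX genes encode homeodomain transcription factors that specify position along the body axis. In 293T, a long-established line derived from human embryonic kidney, 37 HOX genes had a value after exposure to the ROCK inhibitor Y27632, of 11057 named genes with a value at either time. They were all genes whose current symbol is HOXA, HOXB, HOXC or HOXD followed by a number, and a gene's value was the mean of its probes. The groups were 293T cells given 10 µM Y27632 for 3 h or for 6 h, each set against untreated 293T cells given a time of 0 h, with no agent recorded for them. Each time was measured on 1 dual-colour array that held treated cells in Cy3 and untreated cells in Cy5, with no dye swap. The titles of both samples carry the word control with the time, and Y27632 is recorded in the labels of the Cy3 channel. All cells were grown in the same medium with serum.

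HOXD12 had a named probe but no value at either time. HOXA was represented by 10 genes, HOXB by 10, HOXC by 9 and HOXD by 8. Both arrays gave a value for 35 genes, and HOXA3 and HOXC8 had one at 3 h only. HOXA9 had 2 probes and the other 36 genes 1 probe each.

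HOX genes lie in 4 clusters that arose by duplication, on chromosomes 7 (HOXA), 17 (HOXB), 12 (HOXC) and 2 (HOXD). Genes that share a number are paralogs, and the order of the numbers along a cluster follows the order in which the genes are expressed from head to tail in the embryo. Polycomb proteins keep silent clusters repressed, proteins of the trithorax and MLL family keep active genes on, and retinoic acid opens the clusters from the low-numbered end. HOX proteins bind DNA through a TAAT core, often together with PBX and MEIS proteins. Y27632 inhibits ROCK1 and ROCK2, kinases that drive actomyosin contraction.

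Values are log ratios of the channels as deposited, read as log2. The numerator is not given in the sources used here, so a positive sign stands for higher expression with Y27632 only if the treated channel is on top. No value is called a rise or a fall, and turning the sign would exchange positive and negative throughout. With 1 array per time there is no replicate, no error between cultures and no test. The only error at hand is the spread between probes of one gene, an SD of 0.31 at 3 h, 0.33 at 6 h and 0.30 for the difference of both ratios, over 572 genes with 2 or more probes. Ratios hold no level, so whether a HOX gene or a kidney marker was expressed cannot be read from them. The time in culture and the handling cannot be told apart from the inhibitor, and the array cannot be told apart from the time.

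Promoter windows of HOXA6 and HOXC5 are shown because these genes had the lowest value at 6 h and the widest gap between the times among HOX genes. The sequences are from RefSeq, build GRCh38.p14, and run from 250 bases before to 50 bases after the annotated start, 5′ to 3′ on the gene's strand. HOXA6 lies on the minus strand at chr7:27147725-27148024. HOXC5 lies on the plus strand at chr12:54016638-54016937, and HOXC4 has the same window. Capitals mark each TAAT, on either strand.
HOXA6: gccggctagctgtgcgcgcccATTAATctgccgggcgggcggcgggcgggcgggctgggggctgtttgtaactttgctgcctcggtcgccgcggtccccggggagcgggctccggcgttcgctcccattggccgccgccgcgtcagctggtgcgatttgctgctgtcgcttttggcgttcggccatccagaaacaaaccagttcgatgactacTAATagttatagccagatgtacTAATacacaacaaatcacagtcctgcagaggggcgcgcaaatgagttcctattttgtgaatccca
HOXC5: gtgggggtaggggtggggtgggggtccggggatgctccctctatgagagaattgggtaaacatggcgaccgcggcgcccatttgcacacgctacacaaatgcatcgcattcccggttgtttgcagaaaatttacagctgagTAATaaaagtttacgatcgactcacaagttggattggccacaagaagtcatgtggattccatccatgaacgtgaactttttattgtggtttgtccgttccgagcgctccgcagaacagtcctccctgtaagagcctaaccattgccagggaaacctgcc

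Most HOX genes lay close to 0 at both times, and a few stood well below it. The median over HOX genes was 0.04 at 3 h, where the median over all named genes was 0.02. At 6 h it was −0.13 over HOX genes, against 0.02 over all named genes. At 3 h, 16 of 37 HOX genes were below 0 (43.2%), against 47.5% of all genes. At 6 h, 24 of 35 were below 0 (68.6%), against 47.3% of all genes. The median distance from 0 was 0.21 over HOX genes and 0.21 over all genes at 3 h, and 0.15 and 0.22 at 6 h. At 6 h the typical HOX gene thus sat closer to 0 than the typical gene, while the SD was alike, at 0.37 over HOX genes and 0.36 over all genes.

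**Figure D1:**
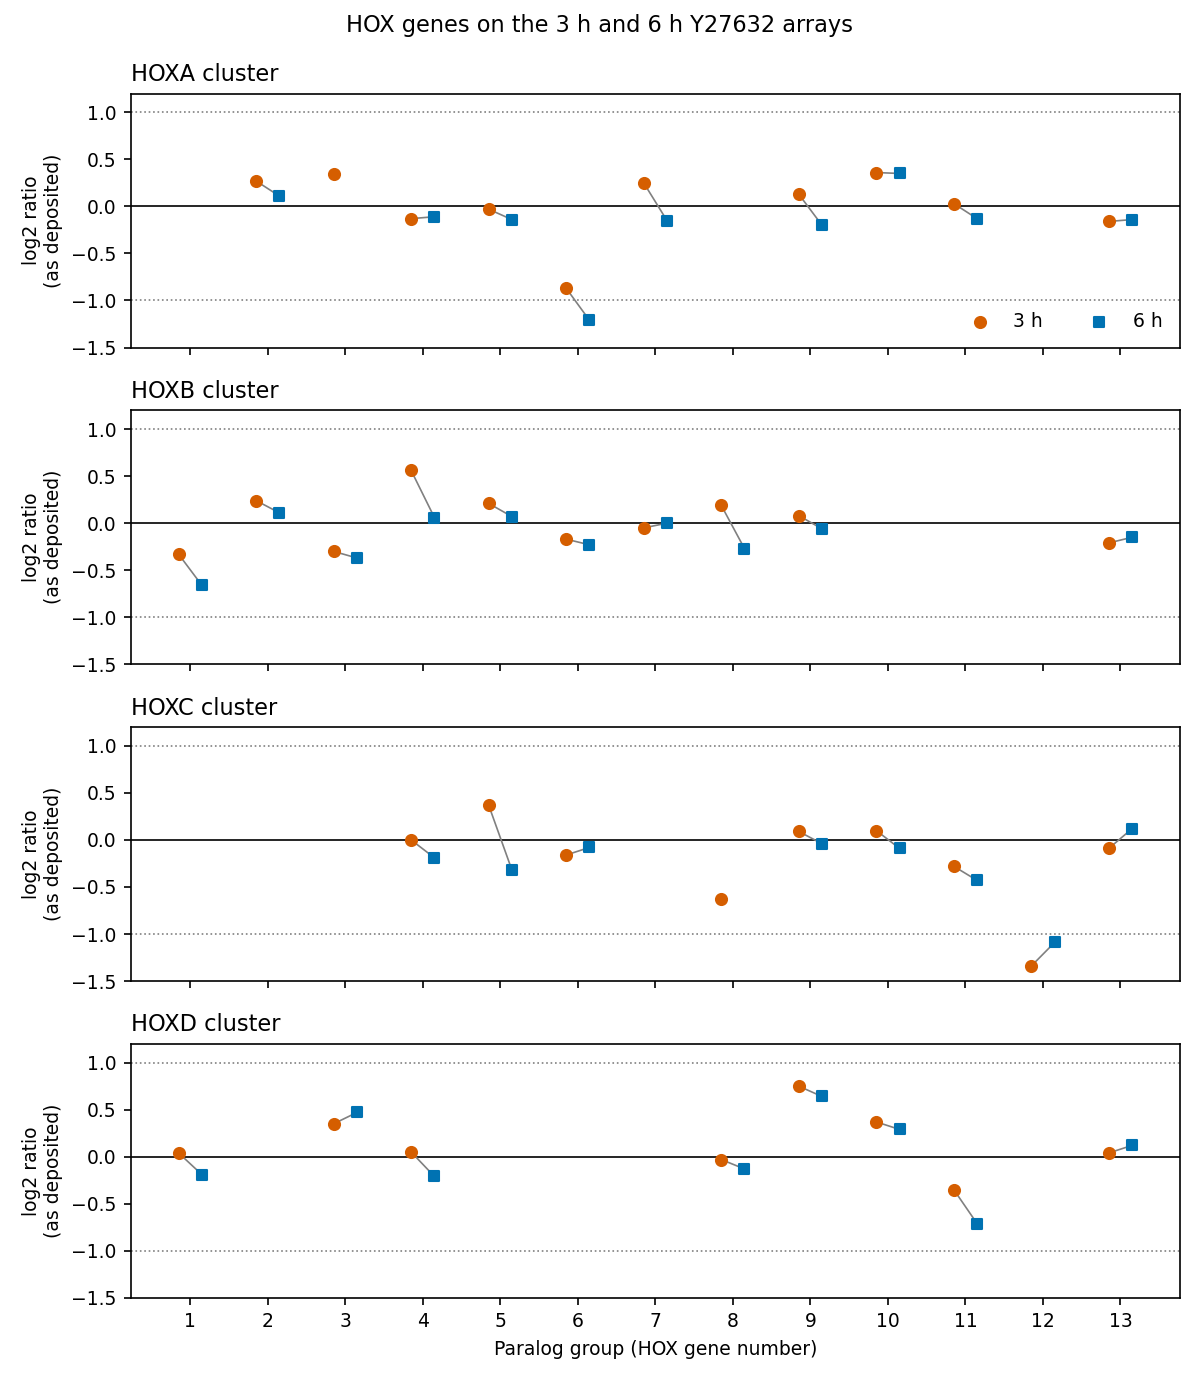
Log2 ratio as deposited (vertical axis) of each HOX gene by cluster (panels) and paralog group (horizontal axis), at 3 h (circles) and 6 h (squares), 1 array each, with a line joining both values of a gene. Dotted lines mark 1 unit from 0. HOXC12 lies beyond −1 at both times and HOXA6 at 6 h, while HOXD9 is the highest gene at both.

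HOXC12 and HOXA6 were the only HOX genes at least 1 unit from 0, both on the negative side. HOXC12, a posterior gene beside HOXC13, had a log ratio of −1.34 (2.53-fold) at 3 h and of −1.09 (2.13-fold) at 6 h. HOXA6, a gene of the middle of the HOXA cluster, had −0.87 (1.83-fold) at 3 h and −1.21 (2.31-fold) at 6 h. Among all named genes, 20 lay below HOXC12 and 174 below HOXA6 at 3 h. At 6 h, 57 lay below HOXC12 and 33 below HOXA6. HOX genes thus held 1 value at or below −1 among 37 at 3 h and 2 among 35 at 6 h, where 0.953% and 0.728% of all genes had such a value. No HOX gene reached 1 on the positive side, a size that 0.657% of all genes reached at 3 h and 0.7% at 6 h. Each of HOXC12 and HOXA6 rests on 1 probe.

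At least 1.5-fold from 0 were 4 HOX genes at 3 h, against 9.36% of all genes, and 5 at 6 h, against 9.86%. HOXC12 and HOXA6 are counted among them at both times. HOXD9, a posterior gene active in limb and trunk, was the highest HOX gene, with 0.75 at 3 h and 0.64 at 6 h. HOXC8, a gene of the thoracic region, had −0.63 at 3 h and no value at 6 h. HOXD11, which with HOXA11 patterns kidney and forelimb in the mouse, had −0.35 at 3 h and −0.71 at 6 h. HOXB1, a hindbrain gene, had −0.33 and −0.66. HOXD11 and HOXB1 were past 1.5-fold at 6 h only, with differences of −0.36 and −0.33 between the times, little more than the probe SD of 0.30.

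The low-numbered genes, paralog groups 1 to 3, act in hindbrain and branchial arches. They had a median of 0.24 at 3 h over 7 genes and −0.04 at 6 h over 6 genes. HOXA2, which sets the identity of the second branchial arch, had 0.27 at 3 h and 0.11 at 6 h. Its paralog HOXB2 had 0.24 and 0.11, and both genes of group 2 lay on the positive side at each time. The group 3 genes did not share a sign. HOXD3 had 0.35 at 3 h and 0.47 at 6 h, HOXB3 had −0.30 and −0.37, and HOXA3, needed for thymus and parathyroid in the mouse, had 0.34 at 3 h. HOXD1 had 0.04 and −0.19, on the same side as HOXB1 at 6 h only.

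The central genes, paralog groups 4 to 8, act mainly in neck and thorax. Their median was −0.03 at 3 h over 15 genes and −0.15 at 6 h over 14 genes, of which 11 were negative at 6 h. HOXB4, which expands blood stem cells when overexpressed, had 0.56 at 3 h and 0.06 at 6 h. Its paralogs were nearer to 0, with −0.13 and −0.11 for HOXA4, 0.00 and −0.19 for HOXC4, and 0.05 and −0.21 for HOXD4. In group 5, HOXC5 had 0.37 at 3 h and −0.32 at 6 h, HOXB5 0.21 and 0.07, and HOXA5, a lung gene in the mouse, −0.03 and −0.14.

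All 3 genes of group 6 were negative at both times, but unequal in size. Beside HOXA6, HOXB6 had −0.17 at 3 h and −0.23 at 6 h, and HOXC6 had −0.16 and −0.08. In groups 7 and 8, HOXA7 had 0.25 and −0.15, HOXB7 −0.05 and 0.00, HOXB8 0.19 and −0.27, and HOXD8 −0.03 and −0.13. HOXA7 and HOXB8 therefore lay on opposite sides of 0 at the 2 times, with differences of −0.40 and −0.46.

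The posterior genes, paralog groups 9 to 13, act in lumbar and sacral regions, limbs and the urogenital tract. Over 15 genes their median was 0.04 at 3 h and −0.09 at 6 h, and they held the highest value of the family at each time and the lowest at 3 h. Group 10 was positive apart from 1 value. HOXA10, a gene of the uterus, had 0.36 at 3 h and 0.35 at 6 h, and HOXD10, of lumbar motor neurons, had 0.37 and 0.29. HOXC10 had 0.10 and −0.09.

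In group 11, HOXA11 had 0.03 at 3 h and −0.13 at 6 h, and HOXC11 had −0.28 and −0.43, so that all 3 genes with HOXD11 were negative at 6 h. In group 9, HOXB9 had 0.08 and −0.06 and HOXC9 had 0.09 and −0.04. The group 13 genes, which act in digits, hair, prostate and the end of the body axis, lay within 0.21 of 0. HOXA13 had −0.16 and −0.14, HOXB13 −0.21 and −0.15, HOXC13 −0.09 and 0.12, and HOXD13 0.04 and 0.12.

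**Figure D2:**
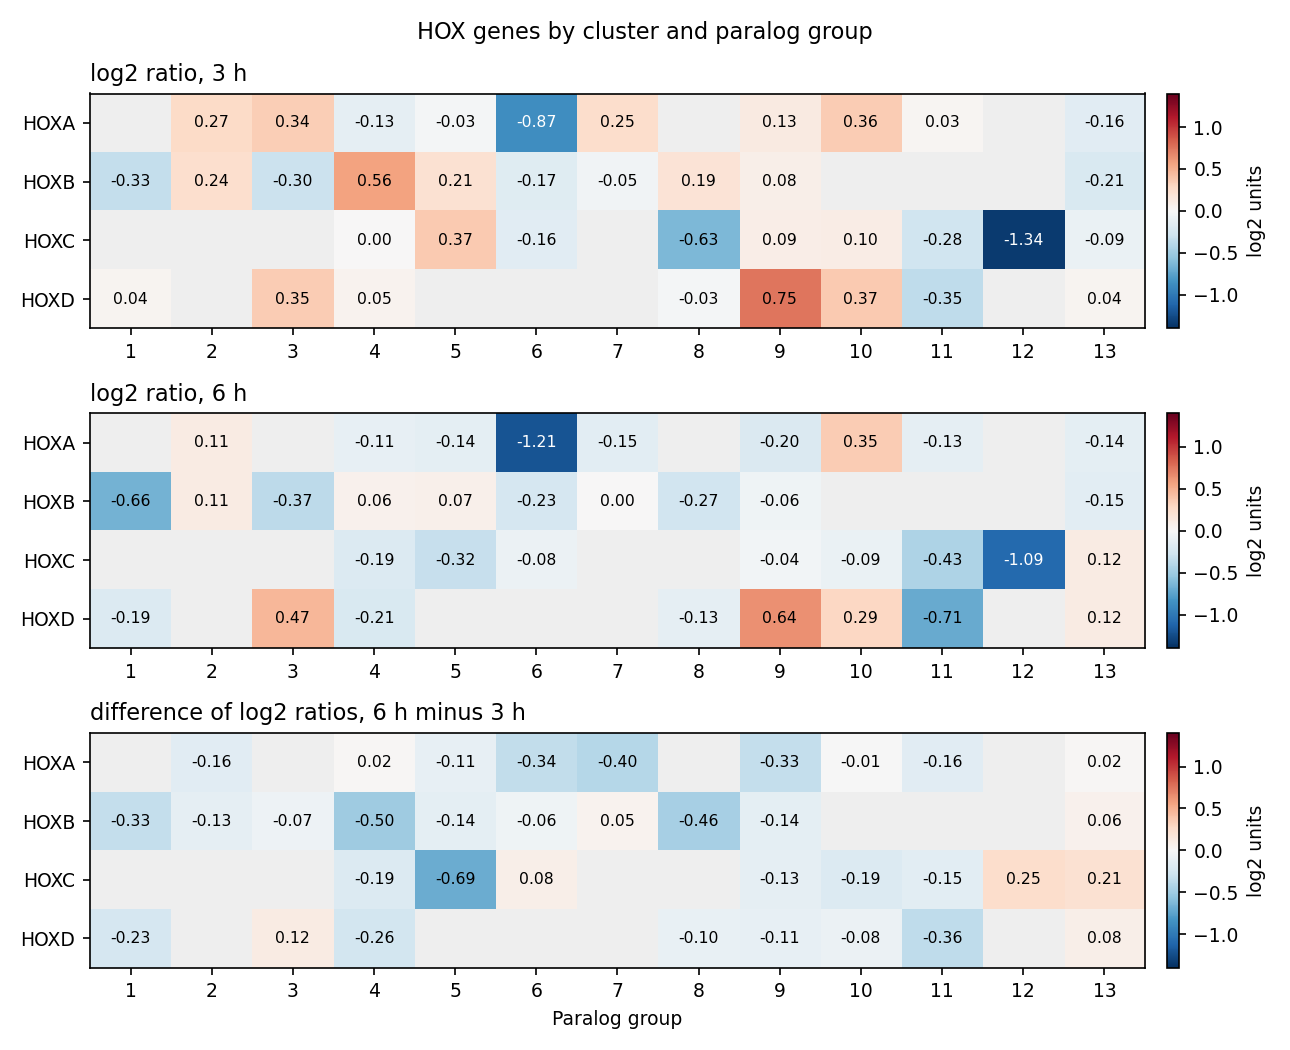
Log2 ratios at 3 h and 6 h and their difference (colour and printed value) for each HOX gene, by cluster (rows) and paralog group (columns), 1 array per time. Grey cells hold no gene or no value. In the lowest panel 26 of 35 cells are negative. The 9 positive ones are HOXC12, the 4 genes of group 13, HOXD3, HOXC6, HOXB7 and HOXA4.

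HOXA9, a driver of acute leukaemias, shows how far 2 probes of a HOX gene can part. Probe H200012682 gave 0.39 at 3 h and 0.25 at 6 h, and probe H300014188 gave −0.13 and −0.65. Their mean was 0.13 at 3 h and −0.20 at 6 h, and the sign of the gene's value differs between its probes at each time. Paralogs are alike in the homeobox, and the probes' own sequences were not used here, so signal shared between paralogs was not tested.

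Most HOX genes had a lower log ratio at 6 h than at 3 h. The difference of the log ratios, 6 h minus 3 h, had a median of −0.13 over 35 HOX genes, against −0.01 over 10469 genes. It was negative for 26 HOX genes (74.3%), against 51.2% of all genes. No HOX gene differed by 1 unit or more, a size reached by 1.2% of all genes, and 1 differed by 1.5-fold or more, against 5.75%. That gene was HOXC5, at −0.69, a 1.61-fold gap, with 185 of all genes below it. HOXB4 followed at −0.50, then HOXB8 and HOXA7. For 27 of the 35 genes the difference was within the probe SD of 0.30. That count was not made over all genes. Their quartiles of the difference were −0.13 and 0.13, so most of them lay within 0.30 too. The median size of the difference was 0.14 over HOX genes and 0.13 over all genes. The shift is thus made of many small gaps, 26 negative and 9 positive. The median difference was negative in each cluster: −0.16 over 9 HOXA genes, −0.14 over 10 HOXB genes, −0.14 over 8 HOXC genes and −0.11 over 8 HOXD genes. Negative were 7 of 9 HOXA genes, 8 of 10 HOXB genes and 6 of 8 HOXD genes, against 51.2% of all genes. In HOXC only 5 of 8 were negative, nearer to that share, with an upper quartile of 0.11.

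Signs differed between the times for 11 of 35 HOX genes, against 20.8% of all genes. Both values lay below 0 for 13 of 35 HOX genes, against 36.3% of all genes, and above 0 for 9, against 40.4%. Of the 11, 10 HOX genes (28.6% of 35) were above 0 at 3 h and below 0 at 6 h, as were 10.4% of all genes. The opposite order was seen for HOXC13 alone, against 10.4% of all genes. HOXC4 at 3 h and HOXB7 at 6 h had a deposited value of 0.00.

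The gap was also set out by paralog group. Over paralog groups 1 to 11 it was negative for 26 of 30 genes, against 51.2% of all genes, with a median of −0.15. The positive genes there were HOXD3, HOXC6, HOXB7 and HOXA4. Over groups 12 and 13 it was positive for all 5 genes, against 46.9% of all genes, with a median of 0.08. The 5 values were 0.25 for HOXC12, 0.21 for HOXC13, 0.08 for HOXD13, 0.06 for HOXB13 and 0.02 for HOXA13, each within the probe SD of 0.30. This split of the groups was chosen after the values were seen, so a pattern along the clusters was not tested.

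**Figure D3:**
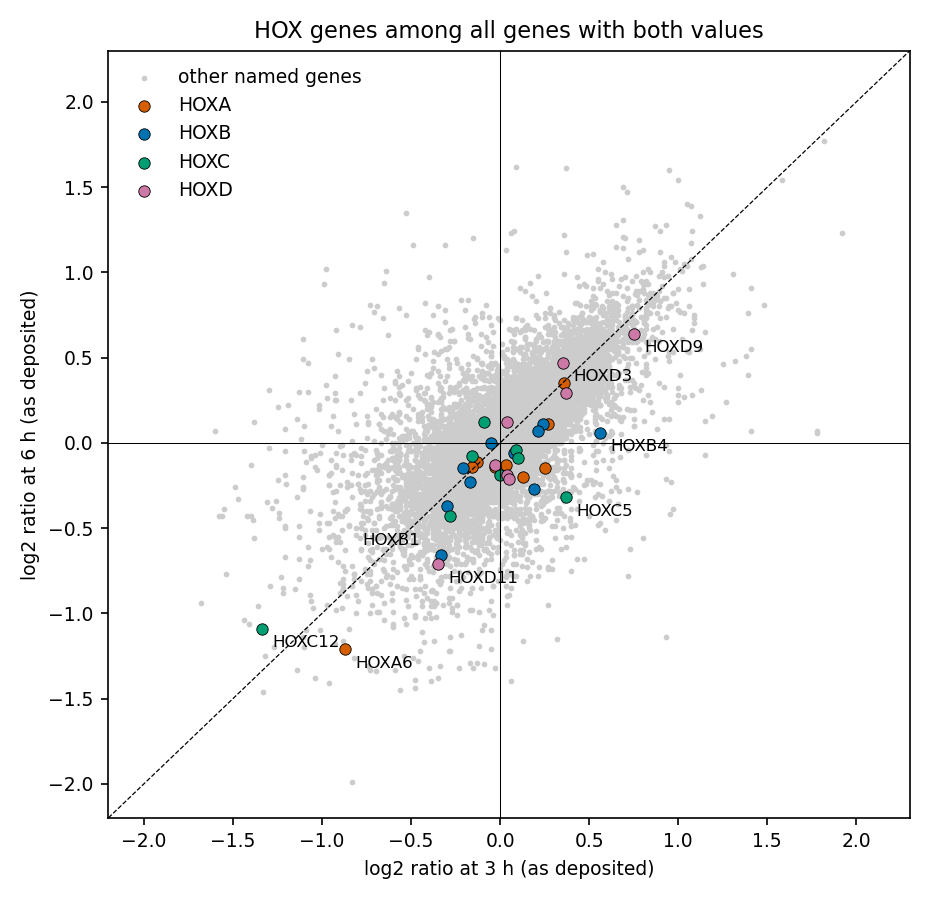
Log2 ratio at 6 h (vertical axis) against log2 ratio at 3 h (horizontal axis) for HOX genes, coloured by cluster, and all other named genes with both values (grey), 1 array per time. The dashed line marks equal values, and 26 of 35 HOX genes lie below it.

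Neighbours on a chromosome had a somewhat wider median gap than HOX genes at large, and paralogs a somewhat narrower one. Adjacent measured genes of a cluster differed by a median of 0.38 at 3 h (33 pairs) and 0.35 at 6 h (29 pairs). Paralogs with the same number differed by 0.25 (39 pairs) and 0.26 (35 pairs), and all pairs of HOX genes by 0.31 (666 pairs) and 0.27 (595 pairs). These pairs share genes and are given as a description. The sets do not hold the same genes. HOXC12 has no measured paralog, but enters the neighbour pairs with HOXC11 and HOXC13, at gaps of 1.06 and 1.25 at 3 h.

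Several HOX genes overlap in the annotation, and the gaps between their values ranged from small to wide. HOXC4, HOXC5 and HOXC6 share an annotated start, with 0.00, 0.37 and −0.16 at 3 h and −0.19, −0.32 and −0.08 at 6 h. The widest gap among them was between HOXC5 and HOXC6, at 0.53 at 3 h and 0.24 at 6 h. HOXB3, whose annotated span includes HOXB4, lay 0.86 below it at 3 h and 0.43 below it at 6 h. HOXA3 spans HOXA4, HOXA5 and HOXA6, and at 3 h lay 0.47, 0.37 and 1.21 above them in turn. Where each probe lies in these shared spans is not given in the sources used here.

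Promoter windows were at hand for 19 of the HOX genes, in 26 windows, since HOXA3 has 7 annotated starts and HOXA10 has 2. Of HOXB only HOXB1 had a window, and of HOXC only HOXC4 and HOXC5, so HOXC12 had none. The windows were rich in CpG, with a median of 22.5 CpG in 300 bases, against 14 over 35116 windows of all genes, while their G and C content was alike, at a median of 58.0% and 58.7%. HOXA6 had 29 CpG and the window shared by HOXC5 and HOXC4 had 15. TAAT, searched on both strands with overlaps counted, occurred in the windows of 15 of 19 HOX genes (78.9%), against 55.4% of 27305 genes. HOXA6 had 4 matches, of which 2 overlap, and the window of HOXC5 and HOXC4 had 1. GGAATG, the core bound by the TEAD partners of YAP, occurred in 8 of 19 (42.1%), against 16.7%. The HOXC5 window held 1 and that of HOXA6 none. TATAAA occurred in 4 of 19 (21.1%), against 3819 of the 27305 genes. The CArG box of SRF and TGANTCA of AP-1 were found in none of the 19, against 1.60% and 9.37% of all genes. A match describes letters and not a bound site.

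The partners, regulators and neighbours of the HOX genes were counted in the same way. PBX, MEIS and related TALE proteins, which bind DNA with HOX proteins, had a median of 0.01 at 3 h and −0.15 at 6 h over 9 of 11 listed genes. Their median difference was −0.06, with 6 of 9 negative, against 51.2% of all genes. In these lists the genes called highest and lowest are ranked by the mean of both times. MEIS3 (0.23 and 0.19) and PBX4 (0.21 and 0.02) were highest, and PKNOX1 (−0.12 and −0.27) and TGIF2 (−0.21 and −0.15) lowest. ParaHox and extended Hox genes, the nearest relatives outside the clusters, had medians of 0.08 and −0.17 over 7 of 13. Their difference had a median of −0.13, as in the HOX genes, with 5 of 7 negative. CDX4, an upstream activator of HOX genes, had 0.12 at 3 h and −0.72 at 6 h and was among the lowest with MEOX1 (−0.21 and −0.50), whereas CDX2 (0.23 and 0.25) and MNX1 (0.08 and 0.04) were highest.

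Other homeobox genes had negative medians at both times. The median was −0.17 at 3 h, with 54 of 78 negative, against 47.5% of all genes, and −0.19 at 6 h, with 57 of 80 negative, against 47.3%. Their median difference was −0.03, against −0.13 in the HOX genes. LMX1A, a regulator of dopamine neurons, was the only member past 1 unit, with −1.01 and −1.10. POU3F3, of brain and kidney, had −0.88 and −0.80. ZEB2, a repressor of epithelial genes, had 0.57 and 0.46, and IRX1 had 0.51 at 6 h and no value at 3 h.

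The chromatin regulators of the clusters had medians near 0. Polycomb genes had −0.06 at 3 h over 22 of 29 and 0.02 at 6 h over 20, with a median difference of 0.11 and a positive difference in 14 of 20, where 46.9% of all genes had one. RNF2, the ubiquitin ligase of Polycomb complex PRC1, had 0.45 and 0.53, and EZH1, a histone methyltransferase of PRC2, had −0.47 and −0.48. PHC1 and PHC3, further PRC1 subunits, had 0.39 and −0.77 at 3 h and no value at 6 h. Trithorax and MLL genes had medians of −0.01 over 13 of 19 and 0.06 over 14. PSIP1, which tethers MLL complexes to chromatin, was past 1 unit at both times, with 1.01 and 1.02. RBBP5, an MLL core subunit, had 0.33 and 0.49. AFF1 (−0.49 and −0.24) and MLLT1 (−0.26 and −0.37), of the elongation machinery fused to MLL in leukaemia, were lowest.

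Retinoic acid genes had a median of −0.14 at 3 h, with 12 of 15 negative, against 47.5% of all genes, and −0.01 at 6 h, with 8 of 15 negative, against 47.3%, of 18 listed. Their differences were positive in 10 of 15 genes, against 46.9% of all genes. RARB, a receptor gene itself induced by retinoic acid, had −0.08 at 3 h and 0.54 at 6 h, and ALDH1A3, which makes retinoic acid, had 0.33 and 0.41. RXRB had −0.28 and 0.60, the highest 6 h value and the widest difference of this list, at 0.88. It was named after its values were seen. CRABP1, a retinoic acid binding protein, had −0.60 and −0.14, and the retinol transporter gene STRA6 had −0.30 at both times. Regulators of kidney development had medians of −0.14 over 16 of 20 and −0.21 over 17. ITGA8 (0.38 and 0.13) and GATA3 (0.25 and 0.10) were highest. SALL1, a zinc finger regulator of the ureteric bud, differed by 1 unit between the times, with −0.58 at 3 h and 0.42 at 6 h, and was named after its values were seen. The kidney list's median difference was −0.12, with 11 of 16 negative, against 51.2% of all genes. Lowest were WNT9B, an inducer of nephrons, with −0.35 and −0.81, and OSR1, with −0.52 at 6 h only. This list and the other homeobox genes share 5 genes.

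Genes that flank the clusters were read as the 5 nearest named genes with a value on each side. Over these 40 genes the median was 0.10 at 3 h, 0.06 at 6 h and −0.06 for the difference. The difference was negative for 26 of the 40, against 51.2% of all genes. Of 10 flanking genes per cluster, 8 had a negative difference around HOXA, 5 around HOXB, 9 around HOXC and 4 around HOXD. Around HOXA, 2 of 10 flanking genes were negative at each time, against 47.5% of all genes at 3 h and 47.3% at 6 h. The other 8 were positive. Flanking medians there were 0.31 and 0.21, while the HOXA genes themselves had 0.08 and −0.14. Around HOXD the flanking medians were 0.15 and 0.19, against 0.05 and −0.01 for the HOXD genes. Around HOXC the flanks had −0.05 and −0.15, beside −0.09 and −0.14 for the HOXC genes. Around HOXB they had −0.01 and −0.03, beside 0.02 and −0.11 for the HOXB genes. Among all 40, ZNF652 (0.49 and 0.52), a zinc finger gene, and PRKRA (0.50 and 0.51), an activator of PKR, were highest. Each was the 5th gene counted on its side, of HOXB and HOXD in turn. By the mean of both times PHOSPHO1 (−0.52 and −0.20) was lowest, followed by NFE2L3 (−0.37 and −0.21) and ZNF385A (−0.23 and −0.35), whose means were equal. GIP, an incretin gene and the 2nd counted on its side of HOXB, had 0.12 and −0.65. Its −0.65 was the lowest flanking value at 6 h, and its difference of −0.77 the widest among the 40. ZNF385A and GIP were named after their values were seen. None of the 40 was 1 unit from 0.

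**Figure D4:**
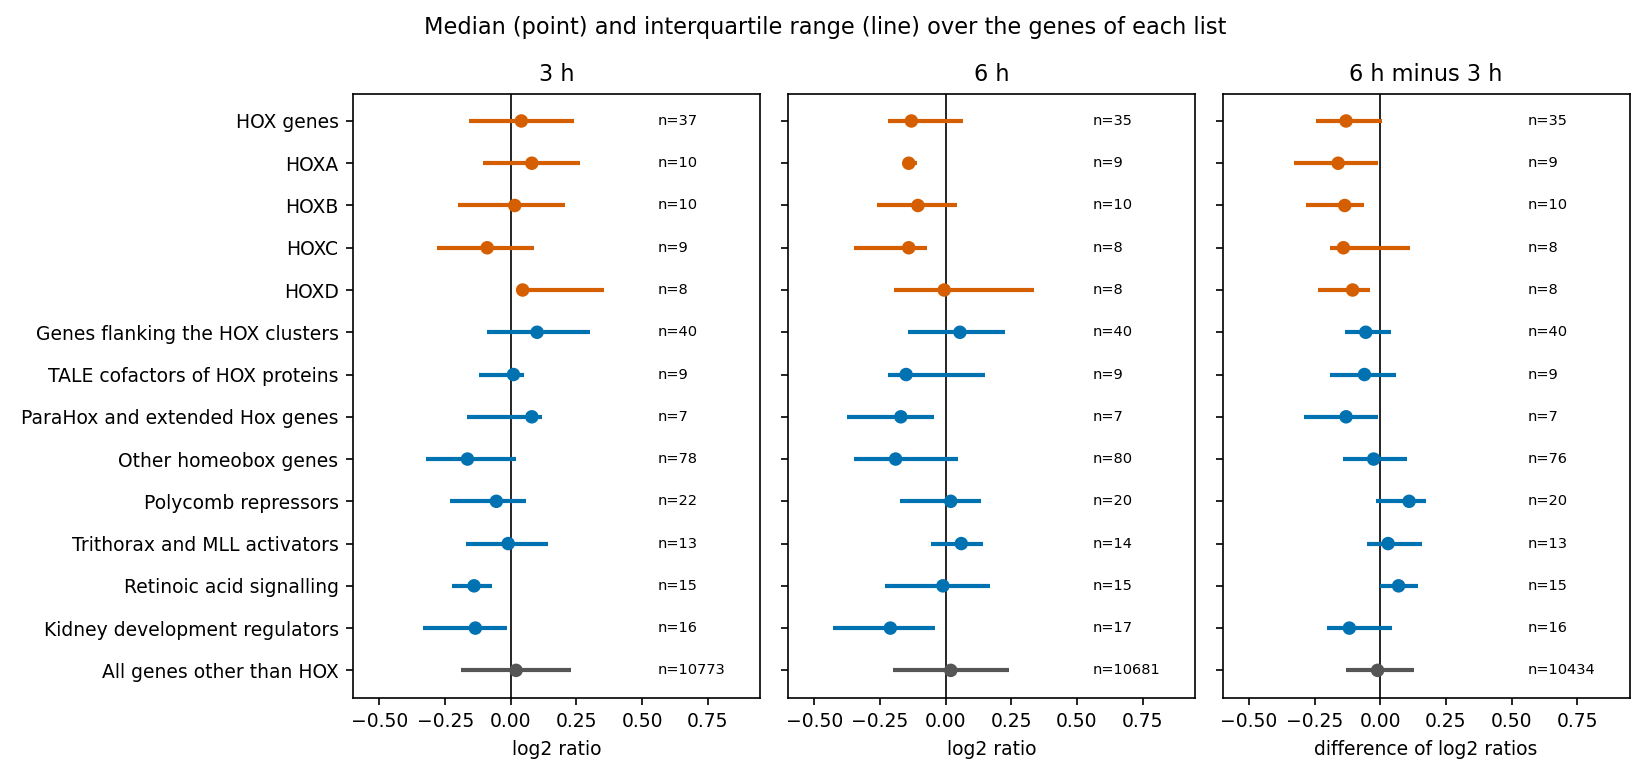
Median (point) and interquartile range (line) of the log2 ratios at 3 h and 6 h and of their difference (horizontal axes) over HOX genes and each cluster (orange), related lists (blue) and all genes other than HOX (grey), with the number of genes. The HOX median lies at 0.04, −0.13 and −0.13, and that of other homeobox genes at −0.17, −0.19 and −0.03.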

How the data were processed

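Per the labels' protocols, RNA was extracted with ISOGEN, amplified with an amino allyl kit and coupled to cyanine dyes. The deposited table held log values with 2 decimals for 24267 probes, read here as log2 ratios of the channels, and their median over all probes was 0 on each array. Read as log10, 1 SD of all probes at 3 h would be 2.39-fold, and read as log2 it is 1.30-fold. The sources used here do not give the background correction, the normalization, the log base or the numerator. No intensities were used, and the number of arrays limits precision.

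The platform annotation named 13395 probes, each with 1 symbol, and left 10872 unnamed. RefSeq (GRCh38.p14) held 10822 of these symbols, a single matching synonym renewed 2446, and 127 stayed as listed. Genes were averaged over probes, medians and counts were taken with pandas 2.3.3, and genes were counted at 1 unit and at 1.5-fold from 0. The counting was tested on simulated data. No test across samples was possible. All HOX genes were named, and of each list the 2 highest and 2 lowest by mean ratio and members past 1 unit. Members and lists were chosen with earlier results of these data known. Alternatives were the probe farthest from 0, centring on named genes, listed symbols, genes on both arrays and the 1.5-fold size.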

Additional observations from a re-analysis of the deposited data

Results flagged for a closer look

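In all, 11 HOX genes had log ratios of opposite sign at 3 h and 6 h. Whether they differ was not tested, as 1 array stands for each time. The difference, 6 h minus 3 h, was −0.69 for HOXC5, −0.46 for HOXB8, −0.40 for HOXA7 and −0.33 for HOXA9, whose 2 probes each kept one sign at both times. It was −0.26 for HOXD4, −0.23 for HOXD1, −0.19 for HOXC10, −0.16 for HOXA11, −0.14 for HOXB9 and −0.13 for HOXC9. HOXC13 had 0.21 and was the only one on the negative side at 3 h and the positive side at 6 h. The probe SD of such a difference is 0.30, which 4 of the 11 exceed. The same count was not made over all genes.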

How the results depend on the processing

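The HOX medians and the counts of HOX genes below 0 at 3 h and 6 h kept their side of 0 or stayed within 1.5 times under the probe farthest from 0, centring on named genes, listed symbols and genes with both values. With a 1.5-fold size in place of 1 unit, 4 HOX genes lay past it at 3 h, 5 at 6 h and 1 in the difference, against 1, 2 and 0 at 1 unit, as a smaller size admits more genes. With the probe farthest from 0, 1 gene, HOXA9, differed by 1 unit between the times, because a different probe then stood for it at each time, and its 6 h value was −0.65. No paired analysis was possible because each time has 1 array and no result comes from a test.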
